A study of Mus musculus with 4 samples.

Results

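Intergenic distal sites are accessible regions that lie away from promoters and outside every annotated gene. Here they were the autosomal ATAC-Seq sites that overlap no GENCODE gene body of any type and whose midpoint is 10 to 100 kb from the nearest transcription start site (TSS) of a protein-coding gene. By this rule 14321 of the 82325 sites were members, or of the 80465 sites on autosomes. The rule uses positions only and no measured value. The sites came from 4 libraries of immortalized mouse embryonic fibroblasts (MEFs), each from a separate line, with 2 libraries from HAT1+/+ lines (WT) and 2 from HAT1−/− lines (KO). All lines had a C57bl6 strain background, came from mid-gestation embryos and carried SV40 T antigen from a transfected plasmid, so immortalization is shared by both genotypes. HAT1 is the acetyltransferase that modifies newly made histone H4 before it is assembled into chromatin, and the study asked how its loss alters chromatin accessibility.

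In ATAC-Seq the Tn5 transposase inserts sequencing adapters where DNA is not covered by nucleosomes, so the reads over a site follow how open it is. Many distal open sites in mammalian cells are enhancers, which are bound by transcription factors and act on promoters over a distance, and others are bound by CTCF, which anchors chromatin loops. In fibroblasts, enhancers are often bound by AP-1, a dimer of Fos and Jun proteins, together with TEAD and RUNX factors. A site is named below by its nearest protein-coding gene, and nearness does not make that gene its target.

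The central 200 bases of 6 members show the range of sequence in these sites. They are the 3 largest falls and the 3 largest rises in KO among called members of higher signal. All are given 5′ to 3′ on the plus strand of the RefSeq genome GRCm38.p6, the assembly named mm10. Capitals mark matches on either strand to AP-1 (TGANTCA), TEAD (GGAATG), RUNX (TGTGGT), SP/KLF (GGGCGG) or the CTCF core (CCANNAGNNGGC).
Sox21 site, chr14:118213492-118213691: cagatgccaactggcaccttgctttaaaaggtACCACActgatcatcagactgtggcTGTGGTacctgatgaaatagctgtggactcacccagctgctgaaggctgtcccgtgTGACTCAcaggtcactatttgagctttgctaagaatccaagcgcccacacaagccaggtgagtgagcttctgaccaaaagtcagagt
Mrgprb5 site, chr7:48137995-48138194: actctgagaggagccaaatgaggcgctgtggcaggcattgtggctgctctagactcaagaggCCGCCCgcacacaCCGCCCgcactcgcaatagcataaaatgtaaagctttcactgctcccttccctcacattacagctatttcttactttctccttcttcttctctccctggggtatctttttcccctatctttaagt
Gm31371 site, chr8:19980033-19980232: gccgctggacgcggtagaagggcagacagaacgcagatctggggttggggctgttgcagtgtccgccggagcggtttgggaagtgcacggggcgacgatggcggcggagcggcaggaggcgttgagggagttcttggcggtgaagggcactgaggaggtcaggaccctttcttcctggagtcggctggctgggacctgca
Ppp1r3b site, chr8:35321314-35321513: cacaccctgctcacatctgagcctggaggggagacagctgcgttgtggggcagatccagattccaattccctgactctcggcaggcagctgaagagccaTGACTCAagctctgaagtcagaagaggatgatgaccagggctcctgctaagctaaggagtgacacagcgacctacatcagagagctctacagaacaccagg
Rsph3b site, chr17:6874469-6874668: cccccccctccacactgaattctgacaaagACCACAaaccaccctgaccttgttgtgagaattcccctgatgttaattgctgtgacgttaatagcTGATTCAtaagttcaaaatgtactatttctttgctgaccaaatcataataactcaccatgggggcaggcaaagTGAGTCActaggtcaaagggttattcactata
Ube2ql1 site, chr13:69770652-69770851: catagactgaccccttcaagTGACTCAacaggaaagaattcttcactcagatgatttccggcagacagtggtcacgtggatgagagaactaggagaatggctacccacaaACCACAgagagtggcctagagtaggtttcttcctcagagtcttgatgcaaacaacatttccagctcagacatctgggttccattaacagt
The Sox21 site held 1 AP-1 and 2 RUNX matches, and each of the 3 sites that rose held AP-1, with 2 matches in the Rsph3b site. The Mrgprb5 and Gm31371 sites held no AP-1 match. The Mrgprb5 sequence had 2 SP/KLF matches, and the Gm31371 sequence was 66% G or C with none of the 5 motifs. Of the 300 bases around the midpoint, 83% of the Rsph3b site were repeat-masked.

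The deposited table gave 1 normalized count per site and library. The number of reads over sites was estimated at 9420000 and 11400000 in WT and at 7830000 and 5650000 in KO, in replicate order, so that 1 read was worth 0.715 to 1.51 normalized counts. Members took 12.2% to 12.7% of the normalized counts of a library, their median was 42 to 44, and at most 11 of them were at 0 in any library. A value near 5 in KO therefore rests on very few reads. Promoter sites were found at 10 of 10 fibroblast markers, with means from 78.8 to 866 normalized counts. Of 14 markers of blood, endothelium, epithelium, muscle and neurons, 6 had a promoter site, with means from 20.5 to 93.5. Ptprc, Spi1, Cd3e, Cdh5, Tie1, Myod1, Myog and Rbfox3 had none. Summed over the other cell types, the promoter sites had 419 and 330 normalized counts in WT and 264 and 332 in KO. Syt1, a neuronal marker, had 150 and 110 in WT and 24 and 80 in KO. Snap25, another neuronal marker, had 41 and 27 in WT and 26 and 53 in KO. Cdh1, of epithelium, was lower in both KO libraries, with 52 and 41 in WT and 34 and 29 in KO. The genotypes overlapped at Snap25, Pecam1, Epcam and Krt8. The part of these markers in any result below was not tested.

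Relative to the table as a whole, the distal sites had much the same accessibility in both genotypes. Their median log2 fold change (KO minus WT, on log2(normalized count + 1)) was 0.00, against 0.01 over all sites. The deposited counts were already scaled per library, with medians of 51 to 53 over all sites. A change shared by all sites would therefore not show here. The mean log2 level of the members relative to all autosomal sites was -0.32 in both WT libraries, against -0.28 and -0.34 in the KO libraries. The KO libraries lay on either side of the WT libraries, and the difference between genotypes was 0.0099 (exact permutation test over 4 libraries, two-sided, p = 1, where the smallest possible p is 0.333). Against 42 to 44 normalized counts in the median distal site, the median promoter site (within 1 kb of a TSS) had 199 to 211.

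limma with an intensity trend called 43 members less accessible in KO and 10 more accessible, at an unadjusted p under 0.01 and a log2 fold change of at least 1 in size. The 43 falls were 0.300% of the members, against 0.302% of all sites. The 10 rises were 0.0698%, against 0.0705% of all sites. Both shares were close to those of the table as a whole. The calls rest on all 4 libraries: without WT replicate 1, WT replicate 2, KO replicate 1 or KO replicate 2 there were 4, 3, 21 and 63 falls, of which 2, 2, 8 and 13 were among the 43, and without WT replicate 2 there were 5 rises, of which 0 were among the 10. Without the trend 76 of the 14321 members fell, when 0.578% of all sites did. Among sites with a mean of at least 52 the fit called 10 falls and 8 rises in 5955 members. Of all sites of that signal, 0.184% fell and 0.0946% rose. No member passed an adjusted p of 0.05 with limma (Benjamini-Hochberg over all sites, with or without the trend), while 398 members (2.78%) had an unadjusted p under 0.05, against 3.13% of all sites, and 563 did without the trend. Both KO values lay below both WT values at 2022 members (14.1%, against 14.1% of autosomal sites), and above both at 1880 (13.1%, against 14.6%). With libraries scaled to equal totals these counts were 2641 and 1477, and with quantile normalization 1767 and 2021, so which was the larger depends on the scaling. With 2 libraries of each genotype, every called difference rests on 4 values, and p-values measure only the spread between these lines.

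The classes of site on either side had other shares of falls. Among 8157 intergenic sites over 100 kb from a TSS, 69 fell (0.846%) and 9 rose. Among 24172 sites inside gene bodies at 10 to 100 kb, 42 fell (0.174%) and 21 rose. Among 4388 intergenic sites under 10 kb away, 11 fell (0.251%) and 5 rose. These shares were compared as counts, with no test between the classes, since neighbouring sites are not independent.

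The largest fall was at a site 23.4 kb from the TSS of Sox21, which encodes a SOX transcription factor of neural progenitors (chromosome 14, 118213394 to 118213791, mm10). It lies 0.249 kb outside the noncoding gene 4933431J24Rik. Its normalized counts were 170 and 81 in WT and 10 and 6 in KO. Both KO libraries were far below both WT libraries, and the WT lines differed more from each other than the KO lines did. The log2 fold change was -3.75 (SE 0.52, limma, unadjusted p = 0.000285). The fall with the smallest p was 30.9 kb from Mrgprb5, a member of the Mas-related receptor family known from sensory neurons (chromosome 7, 48137477 to 48138713). It had 183 and 160 in WT and 11 and 14 in KO. The lines of each genotype were close to each other and the genotypes far apart, with a log2 fold change of -3.68 (SE 0.35, limma, unadjusted p = 3.02e-05). A second member of the same interval, 37.0 kb from Mrgprb5, had 51 and 69 in WT and 5 and 11 in KO and was also called. Mrgpr genes form a cluster of related genes. Reads that match several places cannot be assigned, and whether such reads fall on these sites was not tested.

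A site 76.7 kb from the predicted gene Gm31371 (chromosome 8, 19979713 to 19980553) had 139 and 262 in WT and 16 and 51 in KO. The groups did not overlap, replicate 2 was the higher library in each genotype, and the log2 fold change was -2.69 (SE 0.60). The site 75.1 kb from Shisa3, an inhibitor of Wnt and FGF receptor maturation (chromosome 5, 67532394 to 67533257), had 106 and 131 in WT and 13 and 29 in KO, a log2 fold change of -2.54 (SE 0.46). The site 70.7 kb from Cand1, an exchange factor of cullin ubiquitin ligases (chromosome 10, 119168813 to 119169917), had 81 and 111 in WT and 18 and 36 in KO, a log2 fold change of -1.85 (SE 0.44). At these 3 sites KO replicate 1 was the lowest library. At the site 41.5 kb from Nwd2 (chromosome 5, 63607331 to 63607887) KO replicate 2 was the lowest, with 96 and 125 in WT and 43 and 27 in KO, a log2 fold change of -1.66 (SE 0.37). The unadjusted p from limma was between 0.00128 and 0.00518 at these 4 sites, with an adjusted p of 1 at each.

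**Figure D1:**
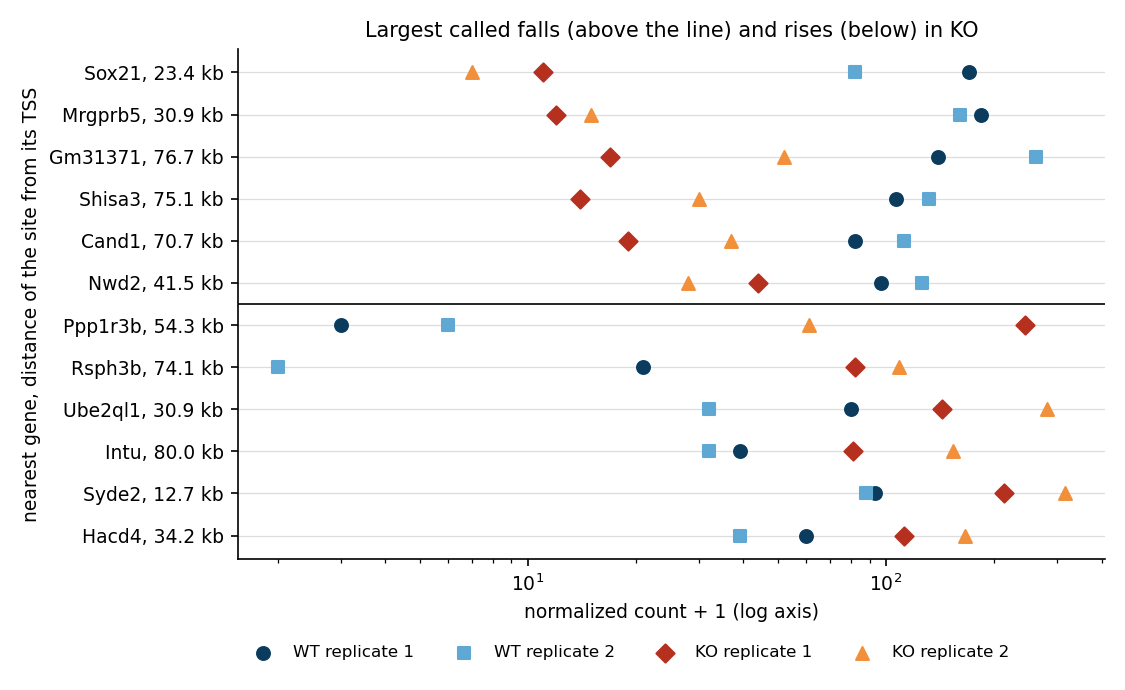
Normalized count + 1 on a log axis for the 6 largest falls and the 6 largest rises among called members of higher signal, with 1 marker per library. At every site both KO markers lie on the same side of both WT markers, with the KO values from 6 to 51 at the falls and from 60 to 316 at the rises.

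The rises were fewer, and the largest 2 were larger than any fall. The site 54.3 kb from Ppp1r3b, a subunit that directs protein phosphatase 1 to glycogen (chromosome 8, 35321126 to 35321703), had 2 and 5 in WT and 243 and 60 in KO. It was nearly closed in both WT lines and open to unequal extents in the KO lines, and the log2 fold change was 4.85 (SE 0.78, limma, unadjusted p = 0.000671). The site 74.1 kb from Rsph3b, a radial spoke protein of motile cilia (chromosome 17, 6874251 to 6874888), had 20 and 1 in WT and 81 and 108 in KO. WT replicate 2 was at about 1 read, and without it the log2 fold change of 3.87 (SE 1.06) was 2.17. The site 30.9 kb from Ube2ql1, an E2-like ubiquitin enzyme (chromosome 13, 69770398 to 69771106), had 79 and 31 in WT and 142 and 281 in KO. It lies 0.412 kb outside the noncoding gene 4930547H16Rik, and the log2 fold change was 1.99 (SE 0.53).

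Intu, which acts in planar cell polarity and cilium formation, had a site at 80.0 kb (chromosome 3, 40450989 to 40451567) with 38 and 31 in WT and 80 and 153 in KO. The site 12.7 kb from Syde2 (chromosome 3, 145974883 to 145975478), had 92 and 87 in WT and 212 and 316 in KO. The site 34.2 kb from Hacd4, an enzyme of very long chain fatty acid synthesis (chromosome 4, 88472835 to 88473345), had 59 and 38 in WT and 111 and 165 in KO. KO replicate 2 was the highest library at all 3, and also at the Rsph3b and Ube2ql1 sites. Their log2 fold changes were 1.66 (SE 0.41), 1.52 (SE 0.27) and 1.50 (SE 0.37). In limma the unadjusted p was 0.00610 at Intu, 0.00118 at Syde2 and 0.00610 at Hacd4, and the adjusted p was 1 at each.

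Over all 43 falls the log2 fold change ran from -3.75 to -1, with a median of -2.37. Each had both KO values below both WT values, which the call nearly requires. Their mean WT values were 30 to 278 normalized counts and their mean KO values 2.50 to 97, and 16 of the 43 had a mean over all libraries of 52 or more, which is the median over all sites. The least of them, 31.2 kb from Fam207a, had 153 and 163 in WT and 76 and 81 in KO. The 10 rises ran from 1.09 to 4.85, with a median of 1.55, and 9 of them had at least that median signal. The falls lay on 13 chromosomes and the rises on 8. Chromosome 1, with 1209 members, held 11 falls and 1 rise. Chromosome 14, with 517 members, held 6 falls and no rise.

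Members were spread over 4974 intervals between protein-coding genes, of which 1957 held 1 member and 157 held 10 or more. The nearest TSS belonged to 5720 different genes, and at most 17 members shared a gene. The interval with the most members, 26, was between Arf6 and Vcpkmt on chromosome 12, and its median member had 50.5 and 79 in WT and 67 and 57 in KO. None of the 26 was called. The 43 falls fell into 39 intervals, 4 of which held 2 falls each. These were Rgs2 to Rgs13 on chromosome 1, Ifng to Dyrk2 on chromosome 10, Api5 to Lrrc4c on chromosome 2 and Mrgprx1 to Mrgprb5 on chromosome 7. Between Ifng and Dyrk2, whose median member had 49 and 41 in WT and 12 and 15 in KO, 4 of 5 members were lower in both KO libraries. The called sites there were 75 kb from Dyrk2, with 63 and 113 in WT and 12 and 15 in KO, and 38.4 kb from Ifng, with 97 and 59 in WT and 12 and 15 in KO. Ifng encodes interferon gamma, a cytokine of T and NK cells, and Dyrk2 a protein kinase. Among the intervals with 5 or more members, the highest mean log2 fold change was between Emx2 and Rab11fip2 on chromosome 19, at 0.82. Of its 7 members, 5 were higher in both KO libraries, and the median member had 56 and 166 in WT and 179 and 170 in KO. Against the WT mean, the mean over the 7 was 0.87 in KO replicate 1 and 0.78 in KO replicate 2. WT replicate 1 minus WT replicate 2 had a mean of -0.43, and none of the 7 was called.

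The region between Uchl5 and Rgs18 on chromosome 1 held 15 members, and in all 15 both KO values lay below both WT values. It was chosen for description after its values had been seen, so no test of it is given. The genes in it, Rgs2, Rgs13, Rgs1 and Rgs21, encode regulators of G protein signalling that shorten signals from G protein-coupled receptors. The median member had 26 and 26 in the WT libraries and 3 and 5 in the KO libraries, and the median log2 fold change was -2.62. Both WT lines were open at low level and both KO lines nearly closed. Of the 15 members, 4 were called. The site 82.2 kb upstream of the Rgs2 TSS had 68 and 54 in WT and 1 and 11 in KO. The site 72.1 kb upstream of it had 30 and 43 in WT and 4 and 3 in KO. The site 57.3 kb from Rgs1 had 45 and 26 in WT and 3 and 5 in KO, and the site 33.3 kb from Rgs21 had 54 and 36 in WT and 8 and 5 in KO. The most open member of the region, 62.5 kb from the Rgs2 TSS on its downstream side, had 102 and 88 in WT and 15 and 44 in KO. At the Uchl5 end of the region the difference was small, with 26 and 19 in WT and 15 and 17 in KO at a site 36.8 kb from Uchl5. The 7 other sites of the region, which are not members, were also lower in both KO libraries. Without the 15 members of the region, 39 falls and 10 rises remained among the distal sites.

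**Figure D2:**
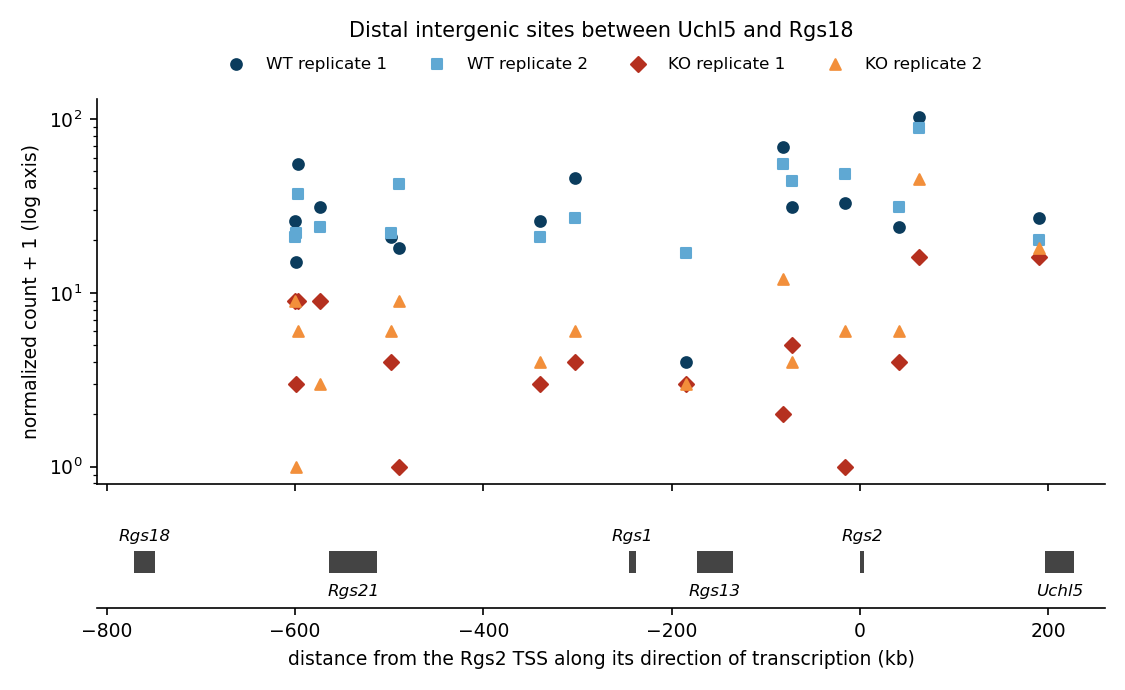
Normalized count + 1 on a log axis for the 15 members between Uchl5 and Rgs18, plotted by distance from the Rgs2 TSS along its direction of transcription, with gene bodies below. The KO markers lie below the WT markers at every member, with medians of 3 and 5 in KO against 26 and 26 in WT, and come closest at the Uchl5 end.

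The surroundings of each site were described by the mean log2 fold change of its 24 nearest neighbours in order along the chromosome, the site itself left out. That mean was under -0.58 at 383 members (2.67%), against 3.37% of autosomal sites. Of the 43 falls, 17 had such neighbours. None of the 10 rises did. A neighbour mean below 0 was found at 37 of the 43 falls and at 6 of the 10 rises. The median neighbour mean was -0.02 over the members and -0.02 over autosomal sites, so a mean below 0 was common. The Shisa3 fall, with a neighbour mean of -1.47, thus lay among lower sites. The Mrgprb5 and Gm31371 falls, at -0.26 and -0.21, did not, and the Ppp1r3b rise lay among sites with a mean of -0.47.

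The KO lines differed from each other more than the WT lines did. Over the members, the SD of the log2 difference was 0.93 between the KO libraries and 0.72 between the WT libraries. Over all autosomal sites it was 0.94 and 0.70, so this was not particular to the members. The Spearman correlation was lowest between the KO libraries, at 0.775, and highest between WT replicate 1 and KO replicate 1, at 0.853, across 14321 sites that share these libraries. The same pairs were lowest and highest over all autosomal sites, at 0.835 and 0.892. Against the WT mean, 217 members were lower by at least 1 on the log2 scale in both KO lines, 920 in KO replicate 1 only and 722 in KO replicate 2 only. Higher by at least 1 were 79 members in both, 580 in KO replicate 1 only and 643 in KO replicate 2 only. Most members that were far from WT in a KO line were thus not so in the other. These counts were not taken over all sites. The differences of both lines share the WT mean and had a Pearson r of 0.12 across the members, which is a description only. KO replicate 2 was also the shallowest library, and the part of depth in this spread was not tested.

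**Figure D3:**
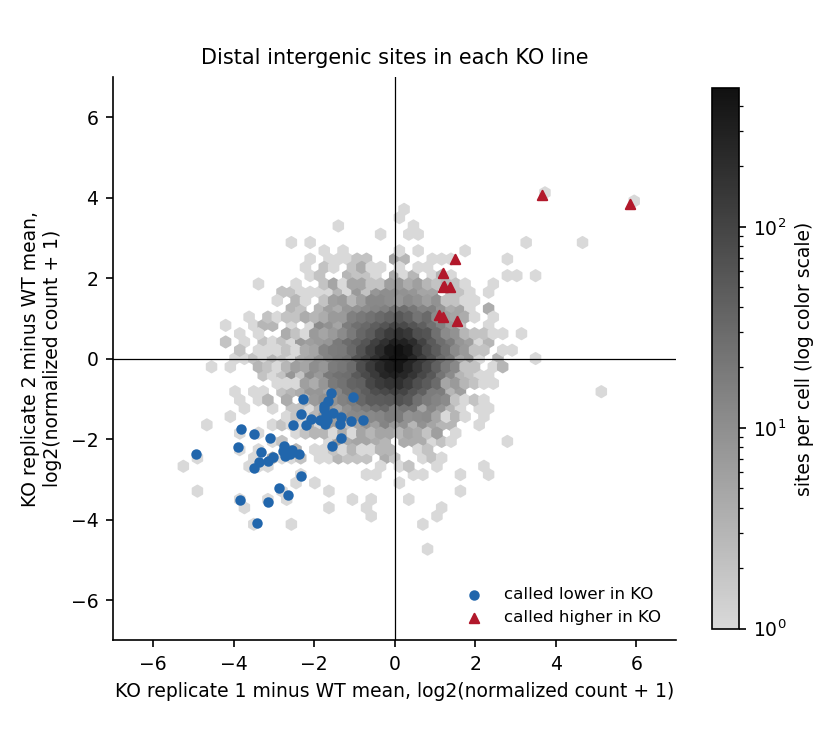
Log2 difference of each KO library from the WT mean for the 14321 members, with the number of sites per cell in grey on a log color scale and called sites marked. The cloud is centred near 0 in both lines, and the 43 falls and 10 rises lie in the corners where both lines moved the same way.

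An example of a difference held by 1 line was the interval between Grm7 and Lmcd1 on chromosome 6. Its 5 members had a mean of -2.76 in KO replicate 2 and 0.19 in KO replicate 1 against the WT mean. Between Serpine2 and Fam124b on chromosome 1, where the mean over 6 members was -1.97, the difference of WT replicate 1 from WT replicate 2 itself had a mean of -1.65, with medians of 9.50 and 35.5 in WT and 2 and 7 in KO.

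The direction of the median change followed how open the members were. Members were divided into quartiles of their mean value over the 4 libraries. In the lowest quartile, at 5.75 to 25.8 normalized counts, the median log2 fold change was -0.17, and in the highest, from 82.5 to 1370, it was 0.11. In between it was -0.04 and 0.00. Both KO lines had this order, with -0.22 and -0.15 in the lowest quartile and 0.13 and 0.10 in the highest. Members lower in both KO libraries made up 22.1% of the lowest quartile and 7.10% of the highest, and members higher in both 7.33% and 21.0%. Falls were spread over the quartiles, with 10, 13, 13 and 7, while rises numbered 0, 1, 3 and 6. Both KO libraries were shallower than both WT libraries, and the part of depth in this pattern was not tested. Among the 5955 members with a mean of at least 52, 556 (9.34%) were lower in both KO libraries and 1075 (18.1%) higher. Over all members these shares were 14.1% and 13.1%. The median log2 fold change at that signal was 0.08 over members and 0.06 over all sites. The higher median at higher signal was thus not particular to the members. Shares by quartile were not taken over all sites.

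By distance, 9 of 3832 members at 10 to 20 kb fell (0.235%), 18 of 6155 at 20 to 50 kb (0.292%) and 16 of 4334 at 50 to 100 kb (0.369%). Rises numbered 3, 3 and 4. Median log2 fold changes of the distance bins lay between -0.01 and 0.01. Falls were also counted by the GC content of the 100 kb around the site. Under 40%, 13 of 1094 members fell (1.19%), at 40% to 45% 21 of 6943 (0.302%) and above 9 of 6284 (0.143%). The 4 called members between Uchl5 and Rgs18 were among the 13. Members under 40% had a median log2 fold change of 0.06, with 12.1% lower and 15.9% higher in both KO libraries. Falls by GC were not taken over all sites. The KO lines moved apart in the GC-poor members, with median differences from the WT mean of -0.11 in KO replicate 1 but 0.26 in KO replicate 2. Above 45% they moved apart less and the other way, at 0.06 and -0.06. Intergenic sites over 100 kb out had -0.115 and 0.109. At the edges of the distance window, intergenic sites at 9 to 10 kb had a median of 46.5 normalized counts and those at 10 to 11 kb 45, with 1 fall in each. Those at 95 to 100 kb had 40.5 with 2 falls, and those at 100 to 105 kb had 33.8 with 1 fall.

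Of the 19 autosomes, 16 had a median log2 fold change of the members within 0.1 of 0. The others were chromosomes 14, 15 and 19. The median member of chromosome 14 had 49 and 36 in WT and 40 and 35 in KO, with WT replicate 1 high. On chromosome 15 it had 44 and 45 in WT and 54 and 44.5 in KO, and on chromosome 19 45 and 44 in WT and 57 and 39 in KO, with KO replicate 1 high on both. Against the WT mean, the median on chromosome 14 was -0.12 in KO replicate 1 and -0.24 in KO replicate 2. It was 0.24 and 0.03 on chromosome 15, and 0.49 and -0.07 on chromosome 19. Lower in both KO libraries were 23.8%, 8.24% and 3.76% of members on chromosomes 14, 15 and 19. Higher in both were 4.64%, 19.9% and 21.2%, against 14.1% lower and 13.1% higher over all members. Called falls and rises on these chromosomes read the same libraries.

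The distal sites differed from promoter sites in the motifs they held. Their median GC content over the 300 bases around the midpoint was 47.3%, against 65.7% in promoter sites. The part of base composition in the motif shares was not tested, and no share expected by chance was computed. In the 300 bases around the midpoint, AP-1 was matched in 43.1% of members, against 37.7% of autosomal sites, 6.57% of promoter sites and 52.6% of intergenic sites over 100 kb out. Of the members, 35.8% held a match with C or G in the middle, 10.8% held one with A or T, and 1268 (8.85%) held 2 or more. TEAD was matched in 26.7% and RUNX in 30.1%, against 10.5% and 11% of promoter sites and 24.7% and 26.6% of autosomal sites. SP/KLF, the GC box of many promoters, was matched in 7.75%, against 62.7% of promoter sites. The CCAAT box of NFY was matched in 33.8% (28.2% of promoter sites) and the CREB half-site TGACGT in 4.16% (8.55%). The CTCF core was matched in 11.4% of members, against 8.20% of autosomal sites, 3.54% of promoter sites and 3.53% of intergenic sites over 100 kb out. It was more frequent in intergenic sites under 10 kb, at 14.7%. Sites inside gene bodies at 10 to 100 kb had AP-1 in 42.5%, TEAD in 26.5% and RUNX in 29.6%, close to the members. They had the CTCF core in 9.33%. A match is a description of the letters and does not show that a factor was bound.

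**Figure D4:**
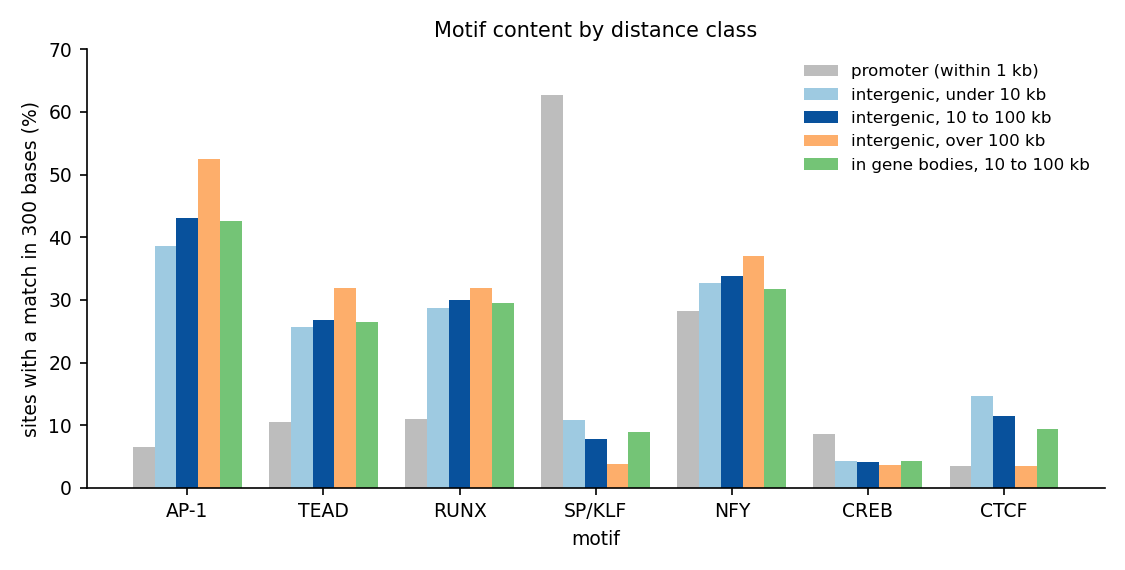
Share of sites with a match to each of 7 motifs in the 300 bases around the midpoint, by class of site. AP-1 rises from 6.57% in promoters to 52.6% in intergenic sites over 100 kb out, SP/KLF goes the other way from 62.7% to 3.84%, and CTCF is highest in intergenic sites under 10 kb (14.7%).

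Inside the window the AP-1 share rose and the CTCF share fell with distance. From 10 to 20 kb, through 20 to 50 kb, to 50 to 100 kb, the share of members with AP-1 was 39.6%, 42.6% and 47.0%, and that with the CTCF core 15.4%, 11.5% and 7.82%. The CTCF share at 10 to 20 kb was slightly above the 14.7% of intergenic sites under 10 kb. By signal quartile, from lowest to highest, AP-1 was in 41.7%, 39.0%, 43.0% and 48.8% of members. CTCF was in 10.8%, 16.4%, 13.2% and 5.40%, so it was most frequent in the middle of the range. The median member with CTCF had 38 normalized counts, against 44.3 without. SP/KLF rose with signal from 5.37% to 11.3%.

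AP-1 and CTCF matches were gathered at the site midpoints. There were 92.2 and 92.9 AP-1 matches per 1000 members in the 30 bases on each side of the midpoint, and 22.3 and 21.1 in the outermost 30 bases of the window. For CTCF these values were 22.8 and 26 at the midpoint and 2.65 and 3.49 at the edges. SP/KLF matches were nearly level, at 11 and 10.5 per 1000 at the midpoint and 9.85 and 8.38 at the edges.

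**Figure D5:**
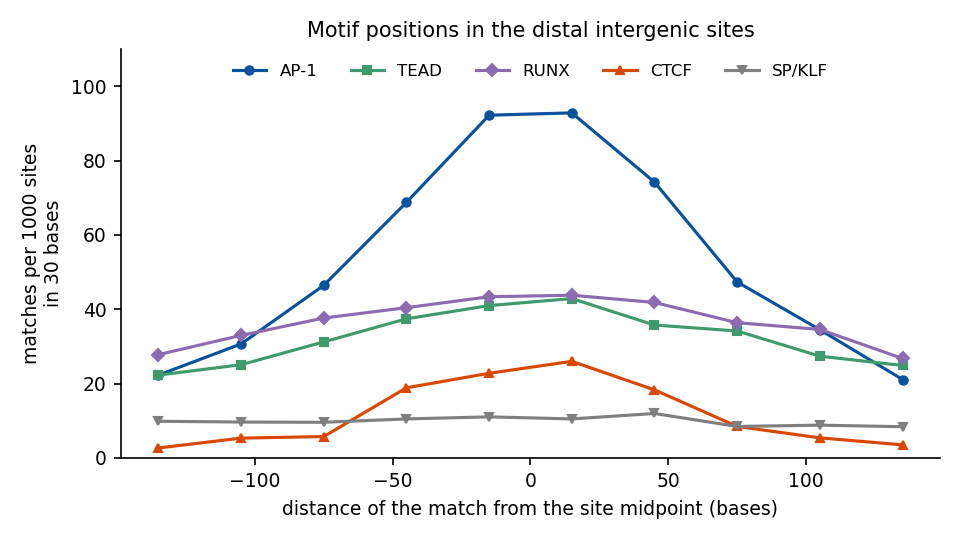
Matches per 1000 members in bins of 30 bases, by distance from the site midpoint, for 5 motifs. AP-1 climbs from about 22 at the edges to 92.9 at the midpoint, CTCF peaks at 26, TEAD and RUNX have broad peaks at 42.9 and 43.8 and SP/KLF is nearly flat.

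The called members held AP-1 about as often as members in general. AP-1 was matched in 21 of the 43 falls (48.8%) and 4 of the 10 rises, against 43.1% of members. TEAD was in 15 falls and RUNX in 13. The CTCF core was in 1 fall, the site 42.9 kb from Lrrc4c, and in no rise, among 1637 members that held it. That Lrrc4c site had 39 and 40 in WT and 6 and 12 in KO. The median log2 fold change was -0.04 over members with the CTCF core and 0.01 over those without, and 17.8% of the former were lower in both KO libraries, against 13.6% of the latter. For AP-1 it was 0.03 with the motif and -0.02 without, and 12.1% and 15.7% were lower in both. The CTCF members were also of lower signal, and the part of signal in this was not tested.

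The most open members changed little. The highest mean value was at a site 30.2 kb from the predicted gene Gm21060 (chromosome 19, 61266407 to 61267274), with 1269 and 983 in WT and 1574 and 1656 in KO, a log2 fold change of 0.53 (SE 0.12, limma, unadjusted p = 0.00356). Both KO libraries were above both WT libraries there, though the difference was below the fold threshold. With quantile normalization it was 0.20 (unadjusted p = 0.128), without WT replicate 2 it was 0.35, and without the trend the unadjusted p from limma was 0.119. Where a site lies in duplicated sequence, reads shared between copies cannot be told apart, and the treatment of such reads is not given in the sources used here. The site 38.3 kb from Crabp1, which binds retinoic acid (chromosome 9, 54802369 to 54803734), had 723 and 1050 in WT and 994 and 1011 in KO. The site 14 kb from Lactb, in the interval next to the tropomyosin gene Tpm1 (chromosome 9, 66988609 to 66990417), had 785 and 930 in WT and 947 and 1072 in KO. The site 21.6 kb from Gvin1, an interferon-induced GTPase (chromosome 7, 106236236 to 106237564), had 540 and 879 in WT and 806 and 1486 in KO. WT and KO overlapped at the Crabp1 and Gvin1 sites and came close at the Lactb site. The unadjusted p from limma was between 0.0685 and 0.267 at these 3 sites.

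Members were then grouped by what their nearest gene does, using 7 lists. Of 139 members nearest to 29 matrix genes, such as collagens and matricellular proteins, none was called, and their median log2 fold change was 0.10. The most open was 35.2 kb from Ccn1, which encodes a matricellular protein (chromosome 3, 145684632 to 145685690), with 493 and 490 in WT and 538 and 651 in KO, a log2 fold change of 0.27 (SE 0.13), or 0.10 with quantile normalization. Of 65 members nearest to 11 contractile and adhesion genes none was called, and the median was 0.20. In both KO libraries 20 were higher (30.8%) and 6 lower (9.23%). These shares were 13.1% and 14.1% of all members and 14.6% and 14.1% of autosomal sites. Among members with a mean of at least 52 they were 18.1% and 9.34%. The median value was 69 normalized counts in this list and 72.25 in the matrix list, against 43.25 over all members. The part of signal in both lists was not tested. Of the 65 members, 16 were nearest to the hyaluronan receptor gene Cd44. The most open, at 42.5 kb (chromosome 2, 102943734 to 102944596), had 494 and 770 in WT and 798 and 818 in KO, so that WT replicate 1 was the library apart, and the log2 fold change was 0.39 (SE 0.20), or 0.07 without that library.

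Of 62 members nearest to fibroblast transcription factor genes none was called, with a median of 0.05. At the most open, 42.0 kb from the forkhead gene Foxc1 (chromosome 13, 31764322 to 31765006), there were 110 and 202 in WT and 335 and 239 in KO. Both KO values were above both WT values, with a log2 fold change of 0.92 (SE 0.34, limma, unadjusted p = 0.0327), which was 0.48 without WT replicate 1 (unadjusted p = 0.212 from limma). Of 38 members nearest to genes of the AP-1, TEAD and SRF axis, none was called, with a median of 0.05. The most open lay 46.6 kb from Amotl2, a regulator of YAP (chromosome 9, 102762605 to 102764007), and had 365 and 455 in WT and 431 and 836 in KO, with overlap between the genotypes.

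Of 68 members nearest to growth factor signalling genes, 1 fell, 76.9 kb from Bmp7, a ligand of the TGF-beta family, with 59 and 26 in WT and 5 and 8 in KO. The most open of this list, 22.8 kb from the EGF receptor ligand gene Hbegf (chromosome 18, 36492473 to 36493537), had 471 and 539 in WT and 621 and 457 in KO, and the genotypes overlapped. Of 24 members nearest to neural transcription factor genes, the Sox21 site fell, and the median of the list was -0.36, which was -0.78 in KO replicate 1 but -0.15 in KO replicate 2 against the WT mean. KO replicate 1 thus carried most of it. The most open of this list, 11 kb from the homeobox gene Irx2 (chromosome 13, 72639352 to 72640372), had 159 and 228 in WT and 123 and 302 in KO, with the KO lines on either side of WT. Of 15 members nearest to neuronal adhesion and synapse genes none was called, with a median of 0.00. The most open was 92.0 kb from the protocadherin gene Pcdh18 (chromosome 3, 49849102 to 49849625), with 73 and 74 in WT and 81 and 110 in KO, a log2 fold change of 0.36 (SE 0.30). In each list the number called was 0 or 1 and its median was a description beside the 0.00 of all members.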

How the data were processed

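Accessibility was measured by ATAC-Seq in 4 libraries, 2 per genotype. Per the submitters' processing notes and the methods of the study, the authors used BWA 0.7.12 to align reads to mm10, called peaks with MACS2 2.1.0 and tested differential occupancy with DESeq2. The treatment of duplicates, of reads that match several places and of the Tn5 offset is not given in the sources used here. The deposited value is treated as a score, because the authors had scaled each count by a factor for its library and rounded the result, which left no raw counts. The table also holds the authors' own log2 fold changes, shrunken fold changes and p-values, which were not used. Gene models came from GENCODE for GRCm38 (mm10), and sequence was read from RefSeq GRCm38.p6.

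All 82325 sites were fitted with limma 3.58.1 in R 4.3.3, with an intensity trend and two-sided tests, on log2(value + 1), a scale that gives too small a fold change at low sites. The planned design allowed a count model, which scaled values do not permit. A site was called at an unadjusted p under 0.01 and a log2 fold change of at least 1 in size, and adjustment was over all sites. The fit was tested on simulated data. Depth was estimated from the spacing of whole numbers that scaling leaves among low values, and it covers counting only. Replicate numbers only name libraries, and the p-values measure only the spread between these lines.

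The sites named were the 6 largest falls and 6 largest rises among called members whose mean value was at least the median over sites and with no overlap between the genotypes, the 5 most open members, the 2 falls and 2 rises with the smallest p, and the most open member of each of 7 gene lists. Some of these are not reported here. Other sites were named after their values were seen. The members and lists were chosen with earlier results of these data known. Summaries used Python 3.11.15, numpy 2.4.6, pandas 2.3.3 and scipy 1.17.1. Alternatives were another pseudocount, filter, scaling, test, threshold, membership rule or sequence window, and the omission of each library.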

Additional observations from a re-analysis of the deposited data

How the results depend on the processing

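The 43 falls, 10 rises and median of 0.00 changed most with signal, scaling and single libraries. Among sites with higher signal, 10 members fell and 8 rose, the median was 0.0779, and 556 of 5955 members (9.34%) were lower in both KO libraries. Without the trend 76 fell, and with no fold filter 27 rose. The median was -0.0675 with equal totals and 0.0272 with quantile normalization, against -0.061 and -0.0002 over all sites. Within 200 bases, AP-1 was in 37.5% and CTCF in 10.1% of members, the window being shorter. Leaving out a library leaves 1 in its genotype, assumed to vary like the other genotype. The falls then ran from 3 to 63, with 4 without WT replicate 1, 3 without WT replicate 2, 21 without KO replicate 1 and 63 without KO replicate 2, of which 2, 2, 8 and 13 were among the 43. The rises ran from 5 (without WT replicate 2) to 14, of which at most 2 were among the 10. The median ran from -0.0252 to 0.0267 and the relative mean level from -0.0177 (without KO replicate 1) to 0.0374. Members lower in both ran from 3996 to 5058, more by construction with fewer libraries. At named sites that were not called, the direction turned at Crabp1 (-0.0783, quantile), Lactb (-0.0245, quantile), Hbegf (-0.0758, quantile) and Irx2 (-0.0500 with equal totals, -0.0758 with quantile normalization). With a library left out, Crabp1 ran from -0.0668 to 0.471, Hbegf from -0.141 to 0.301 and Irx2 from -0.626 to 0.663. Where no reason is given, the cause was not tested. Of 120 values of the 12 called sites under the alternatives, 78 kept direction and call and 42 lost the call. Of 120 values of the 12 sites that were not called, 110 kept the direction and 10 reversed. Pseudocount 8 and the other membership rules changed no count by over 1.5 times, nor did 3 alternatives chosen after seeing the data: autosomal sites only, members that are over 50% repeat-masked left out and the Rgs region left out. Count models, their scalings and a count filter were not run, since they need raw counts. No paired analysis was possible because the genotypes share only 1 number, in the line names of WT replicate 1 and KO replicate 2, whose meaning is not given in the sources used here, and the replicate numbers are in accession order. Values under about 5 normalized counts rest on a few reads, so the depth limits what can be said of low sites.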
